A study of Cyprinus carpio with 18 samples.

Results

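The 17 predicted microRNAs described here were listed in all 3 libraries of hatching common carp embryos and in none of the 3 libraries of larvae at 1 day post hatch. They were chosen from the deposited count lists by 3 conditions: a row named by its sequence rather than by a carp microRNA name, a length of 19 to 23 bases, and that pattern of listing. The lists hold 2888 mature sequences over 18 libraries, of which 2742 are predicted and 2452 are predicted and 19 to 23 bases long. The hatching and larva lists chose the members, so the values at those stages are a description with no test. The names pred-1 to pred-17 are numbers given here, in order of summed counts at hatching.

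The study sequenced small RNA of embryos and larvae of wild-type FFRC No.2 strain common carp (Cyprinus carpio), a selectively bred strain, obtained by natural spawning. It covered 6 stages with 3 libraries each: cleavage at 2 hours post-fertilization, blastocyst at 6, gastrulation at 12, organ formation at 20 and hatching at 64 hours, and the larva at 1 day post hatch. All stages shared strain and genotype, and no group received a treatment. Per the labels' protocols, equal amounts of RNA were pooled within a stage. Whether the 3 libraries of a stage trace back to different spawnings is not stated, so the p-values measure only how far these libraries differ, which may be technical. Whole animals were used, so fewer cells that make a microRNA and less of it per cell cannot be told apart.

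MicroRNAs are short RNAs cut from hairpin precursors. Bases 2 to 8 of the mature strand, the seed, do most of the pairing with target mRNAs, and the 2 strands of a hairpin can both be released and pair with short overhangs at their 3′ ends. In zebrafish, maternal RNA is cleared around the onset of embryonic transcription, microRNAs take part in that clearance, and many tissue-specific microRNAs appear as organs form. The files used here give no hairpin, locus or target for the predicted sequences, so each is described by its letters and counts alone.

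The sequences below carry the results. They are 5′ to 3′ in the DNA letters of the files, with the seed in capitals. Pred-1 was abundant before hatching, and pred-11 was listed in all 12 earlier libraries, with 8 to 93 counts over its length forms. Pred-7, pred-12 and pred-15 were listed at cleavage, and pred-2 and pred-4 returned in the larva at another length. Pred-3, pred-5 and pred-13 have near-complementary or overlapping sequences in the lists.
pred-1: gTGTGGAGagccgtttgttac
pred-11: cTGCGATTctggacgtgagcc
pred-7: tGACCGAGgactatgggtgcca
pred-12: tGTGACTAagaaacagttatc
pred-15: tGAGATATgatgttggcgaacc
pred-2: aAAGTGCTatcaagttcgggta
pred-4: cAAGTGGAccattgacacttct
pred-3: tTCGGTTAtctagctttatgac
pred-5: tCAAATGGactattgacactct
pred-13: aGTGTCAAtggtccacttgagc

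Depth set what could be seen at each stage. Listed counts summed to between 4964459 and 6694561 per hatching library and to between 5642188 and 8427601 per larva library, but to only 60779 to 438398 in the 12 libraries of the 4 earlier stages. The lowest count of a listed predicted row was 5, so 4 counts is the highest level just under the listing minimum. In the larva 4 counts correspond to 0.709 counts per 1000000 listed counts (CPM) in library 1, 0.640 in library 2 and 0.475 in library 3. This 4-count level serves as a yardstick and is no bound on an unlisted row: the lists rarely hold 2 length forms of a sequence together, and some rows are unlisted in 1 library beside high counts in others of the same stage, with values given further on. Not listed is therefore all that the files say, and it does not show that a sequence was absent. All levels below are CPM or percent of a library's listed counts. Such a share can fall where other microRNAs rise, which was not told apart from a fall of the row itself.

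Pred-1 held most of the members' counts and was 1 of the most abundant listed microRNAs in the libraries of the 4 earlier stages. Its counts were 2086, 3033 and 1870 in the cleavage libraries, 5108, 4547 and 3855 in the blastocyst, 1676, 4298 and 2345 in gastrulation, and 3876, 3143 and 4513 in organ formation. At hatching it had 395, 686 and 775 counts in libraries that were more than 10 times as deep, and it was unlisted in the larva. Every library of the 4 earlier stages was therefore far above every hatching library, with no overlap.

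As a percent of the library, pred-1 made up 2.20 ± 0.896 at cleavage, 1.10 ± 0.189 at the blastocyst stage, 1.38 ± 0.407 at gastrulation and 4.41 ± 1.06 at organ formation, and 0.0117 ± 0.00513 at hatching (mean ± SD, n = 3 libraries each). It ranked between 2 and 11 among all listed microRNAs in the 12 earlier libraries and was the most abundant predicted row in 9 of them. At hatching its rank lay between 133 and 179. It supplied 14.3% to 42.0% of all predicted counts in the earlier libraries, against 0.0577% to 0.158% at hatching. The mean CPM at organ formation was 377 times that at hatching, and the lowest organ formation library was still 205 times the highest hatching library. Both ratios compare shares of listed counts, not amounts of pred-1 per animal. At its mean hatching level, pred-1 would have given 661 counts in the shallowest larva library, where it was not listed. The edgeR log2 fold change from organ formation to hatching was -8.36 (SE 0.67) with TMM scaling and -2.66 (SE 0.50) with unlisted rows counted as 4, the smallest of the 27 alternatives. That setting gives unlisted rows the same 4 counts in shallow and deep libraries, so its size is not comparable with the others. The rule used the hatching values, so these describe the size and are no test.

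**Figure D1:**
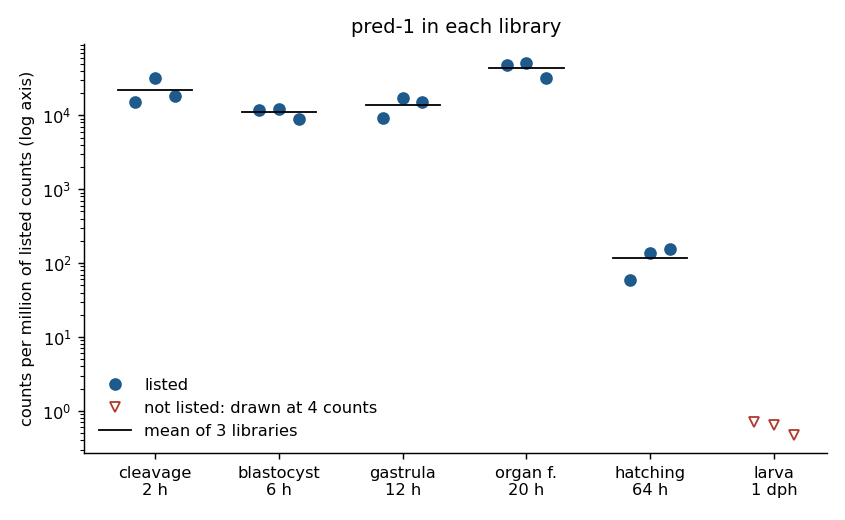
Level of pred-1 in each of the 18 libraries, in CPM on a log axis, by stage (h, hours post-fertilization; dph, days post hatch); points are libraries, lines are means of 3 libraries, and open triangles mark the 4-count level where it was not listed. The 12 earlier libraries lie between 8793 and 51712, the hatching libraries between 59.0 and 156, and the 4-count level of the larva libraries between 0.475 and 0.709.

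The 3 steps among the earlier stages did not enter the choice of members and were tested with edgeR's quasi-likelihood test over 328 rows, with Benjamini-Hochberg adjustment. Pred-1 did not pass in any of them. Its log2 fold change was 1.33 (SE 0.49, adjusted p = 0.131) from cleavage to blastocyst, -0.50 (SE 0.49, adjusted p = 0.658) from blastocyst to gastrulation, and -0.01 (SE 0.48, adjusted p = 1.00) from gastrulation to organ formation. These values rest on the scaling between libraries: trimmed-mean (TMM) factors ran from 0.195 to 2.24. By the mean log2 factor of each stage, TMM raised the first step by 2.23 against plain library totals. It lowered the second by 0.68 and the third by 1.72, and the shift of a single row can differ somewhat from these means. With library totals, the first step was -1.03 and the third was 1.68 (adjusted p = 0.0306), the order that the percents above show. DESeq2 and a fit with no filter on low counts called the first step higher, by 1.70 and 1.91. The sign of each of these consecutive steps differed between TMM and library totals. For the third step, the TMM value is too small beside its SE to have a direction, and 25 of 27 alternatives were positive. The second step was called in 0 of 27 alternatives.

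No close form of pred-1 was found among the predicted rows. No predicted sequence differing from it only at the ends, by up to 3 bases, and none differing by 1 base, was listed in any of the 18 libraries. The 146 named microRNAs carry no sequence in the files used here and were not compared. The longest run it shared with any of the 1545 predicted rows listed in a larva library was 9 bases, and 8 bases on the opposite strand. A single other predicted row shared its seed, with 10 counts in hatching library 1 alone.

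Of the 17 members, 5 passed the filter on low counts: pred-1, pred-2, pred-11, pred-12 and pred-15. None of the 5 was called from cleavage to blastocyst, where 7.62% of the 328 tested rows were called, from blastocyst to gastrulation, where 7.01% were called, or from gastrulation to organ formation, where 6.1% were called. Some could not be called. Pred-2 was unlisted in every library of the first step, and pred-12 and pred-15 in every library of the third. Pred-12 and pred-15 passed the filter through their cleavage libraries, and pred-2 through organ formation, so those stages are not free of it. The lack of calls is therefore not read as a result about the members. At an unadjusted edgeR p under 0.05 the numbers of members were 1, 4 and 0. The share of all rows at that threshold was not computed, so nothing is read from them. Of the 4, pred-2 was higher at gastrulation and unlisted in every blastocyst library. Pred-11, pred-12 and pred-15 were lower and unlisted in every gastrulation library, and pred-11 turned to 1.98 with its length forms summed. DESeq2 called 1, 0 and 0 members, beside 49, 43 and 61 of the 328 rows. From organ formation to hatching, pred-1 was called lower, against 27.1% of rows called, and from hatching to larva pred-1 was the only row called, 0.305% of those tested. The rule used the values of both those steps, so nothing is read from these counts.

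Pred-11, like pred-1, was listed in all 12 earlier libraries once its forms were counted together. By library totals its order among the earlier stages differed: its mean CPM was highest at gastrulation, that of pred-1 at organ formation. The order of pred-1 depends on the scaling. With TMM its fitted steps of 1.33, -0.50 and -0.01, none of them called, put its highest level at the blastocyst stage. By itself pred-11 was listed in 6 of the 12 earlier libraries. A form 1 base shorter at the 3′ end was listed in 6 others:
pred-11, shorter form: cTGCGATTctggacgtgagc
The shorter form had 25 counts in blastocyst library 2, 74, 53 and 93 in gastrulation, and 11 and 32 in organ formation libraries 2 and 3, all libraries where pred-11 itself was unlisted. No library listed both forms.

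Summed, the 2 forms of pred-11 had 8, 14 and 22 counts at cleavage, 31, 25 and 26 at the blastocyst stage, 74, 53 and 93 at gastrulation, 28, 11 and 32 at organ formation, and 6, 8 and 12 at hatching. That is 141 ± 78.9, 66.2 ± 6.29, 404 ± 190, 253 ± 88.1 and 1.63 ± 0.762 CPM (mean ± SD, n = 3). All 12 earlier libraries were above all 3 hatching libraries, and the mean at organ formation was 155 times that at hatching. In any library that listed a form, the listing minimum fixed that order. In the earlier libraries 4 counts correspond to at least 9.12 CPM, above the hatching levels of 0.896 to 2.42 CPM. The listing itself was not fixed: at its mean hatching level, pred-11 would have given 0.716 counts in the deepest earlier library. The ratio at organ formation rests on 11 to 32 counts per library. Neither form was listed in the larva. At 6 counts in hatching library 1, pred-11 was only 1.26 times the highest 4-count level of the larva libraries.

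With end forms summed, an alternative added after seeing the data, pred-11 was lower at organ formation than at gastrulation by edgeR (log2 fold change -2.55, SE 0.74, adjusted p = 0.0458), where 9.15% of 328 rows were called. The call is thin. It was made in 3 of the 18 fits that left out 1 library, with adjusted p from 0.0309 to 0.370, and with library totals the value was -0.67 (adjusted p = 0.534), while the step from blastocyst to gastrulation was then called higher (log2 fold change 2.60, adjusted p = 0.0235). With TMM and forms summed, that earlier step gave 1.98 (adjusted p = 0.112, with 7.01% of rows called), and the step from cleavage to blastocyst gave 1.03 (adjusted p = 0.449, with 10.7% of rows called). In the same fit pred-1 and pred-11 were called lower at hatching than at organ formation, with 36% of rows called, and pred-1, pred-7 and pred-11 lower in the larva, with 0.915% called. The rule used both those steps, and nothing is read from them.

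Pred-7, pred-12 and pred-15 were listed at cleavage, left the lists before organ formation, and were listed again at hatching at a level that the earlier libraries could not show. Pred-12 had 12, 7 and 6 counts at cleavage, 73.9 ± 14.7 CPM (n = 3), then 8 counts in blastocyst library 3 alone. Pred-15 had 16, 17 and 6 counts at cleavage, 119 ± 60.7 CPM, then 10 counts in blastocyst library 1 alone. All 3 cleavage libraries of both were above their hatching libraries, where pred-12 was at 1.53 ± 0.227 and pred-15 at 1.23 ± 0.504 CPM. In any library that listed them, the listing minimum fixed that order. The level just under it was at least 29.5 CPM in the cleavage libraries, above both members in every hatching library.

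Pred-7 changed length between early libraries. Its exact sequence had 40 and 17 counts in cleavage libraries 1 and 2, and a form 1 base longer had 11 in library 3. At the blastocyst stage the exact form had 10 counts in library 1, a form 1 base shorter had 9 in library 2, and the longer form had 11 in library 3. Together these made 194 ± 94.1 CPM at cleavage and 24.2 ± 0.995 at the blastocyst stage (n = 3). The cleavage libraries were all higher, but in any library that listed a form the listing minimum fixed that order. The level just under it was at least 29.5 CPM in the cleavage libraries, above pred-7 in every blastocyst library. The order also rests on library totals, against which TMM raised this step by a mean log2 of 2.23. Gastrulation library 2 held 5 counts, organ formation none, and the hatching libraries 20, 8 and 15, or 2.53 ± 0.818 CPM.

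In the organ formation libraries 4 counts correspond to 28.3 to 65.8 CPM, above the hatching level of pred-7, pred-12 and pred-15. Whether these 3 were present at organ formation at a level near that of hatching was not detectable at this depth. Their cleavage means were above those 4-count levels, at 194 CPM for pred-7 with end forms summed, 73.9 for pred-12 and 119 for pred-15. None was listed at organ formation, which does not show absence. Pred-3 showed a related pattern through 1 other form, shifted by 1 base, which had 26 and 5 counts in cleavage libraries 2 and 3 and 6 in blastocyst library 3.

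**Figure D2:**
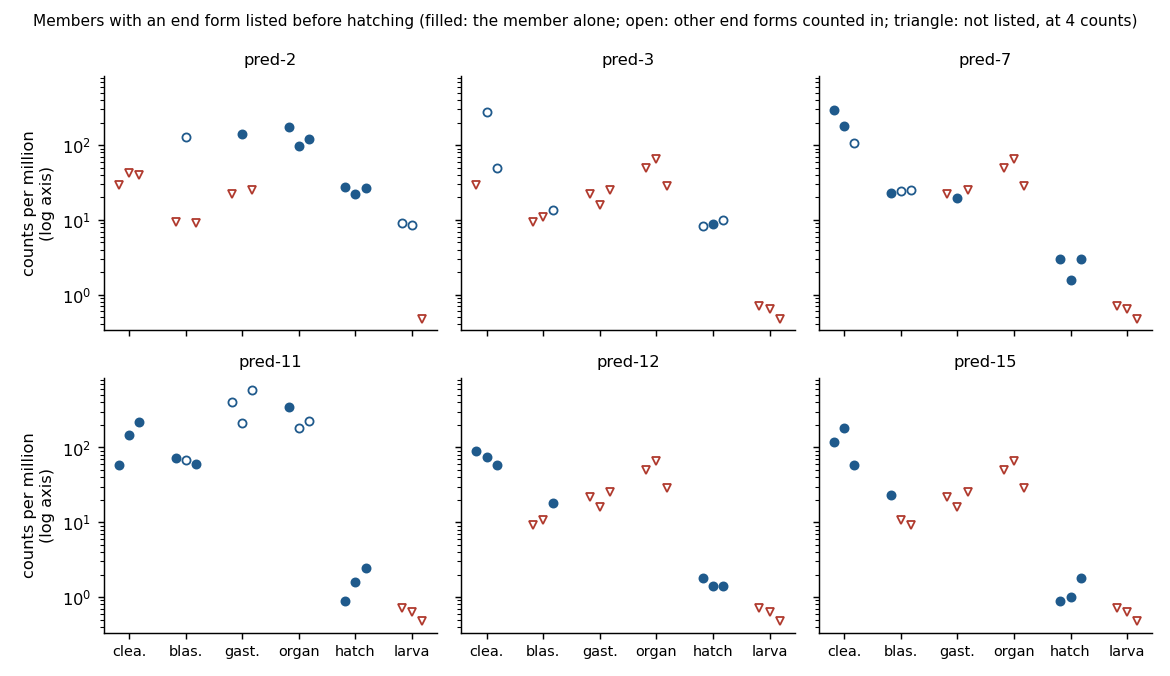
Levels of the 6 members other than pred-1 with any end form listed before hatching, in CPM on a log axis for each of the 18 libraries, with end forms summed. Filled points are libraries where the member alone was listed, open points include another end form, and triangles mark the 4-count level where none was listed. Pred-11 lies between 59.3 and 592 at the blastocyst and gastrulation stages and at 0.896 to 2.42 at hatching, and pred-2 is the only 1 of the 6 with points in the larva.

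Pred-2 was the second member by counts at hatching and the most even. It had 183, 113 and 131 counts there, 25.4 ± 2.61 CPM (n = 3), and 14, 6 and 17 counts at organ formation, 132 ± 39.7 CPM. The organ formation libraries were all higher, but in any library that listed pred-2 the listing minimum fixed that order. In them 4 counts correspond to 50.2, 65.8 and 28.3 CPM, above the level of pred-2 in every hatching library. Before organ formation, pred-2 had 35 counts in gastrulation library 2, and a form 1 base longer had 48 in blastocyst library 2. In the edgeR fits, which use the hatching values that chose it and so describe only, the log2 fold change from organ formation to hatching was -2.18 (SE 1.55, adjusted p = 0.350). It was -2.94 (adjusted p = 0.000244) with the 2 stages fitted alone and 3.47 (adjusted p = 0.000633) with unlisted rows counted as 4. That last setting gives unlisted rows the same 4 counts in shallow and deep libraries, and 597 of its 613 calls at this step were higher. Its sign therefore cannot be set against the others. The listing minimum bears on the negative values as well, so no direction is read for pred-2.

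Pred-2 was unlisted in the larva only at its exact length. A form 1 base shorter at the 3′ end had 51 and 53 counts in larva libraries 1 and 2, 9.04 and 8.48 CPM, and was unlisted in larva library 3 and at hatching. Pred-2 also has a close relative that differs from it by C17G, counted from 1 at the 5′ end with the base of pred-2 first:
pred-2: aAAGTGCTatcaagttcgggta
pred-2, shorter form: aAAGTGCTatcaagttcgggt
relative of pred-2: aAAGTGCTatcaagttggggta
The exact relative had 10760, 5970 and 7791 counts at hatching and 2557 in larva library 1, and was unlisted in larva libraries 2 and 3, where a form 1 base shorter had 2554 and 637.

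Over all end forms, pred-2 stood at 1.64%, 1.70% and 1.61% of its relative in the hatching libraries and at 1.94% and 1.95% in larva libraries 1 and 2. In organ formation the values were 0.872%, 0.716% and 1.11%, and in blastocyst and gastrulation library 2, with few counts, 9.01% and 24.5%. In larva library 3 no form of pred-2 was listed beside 686 counts of the relative, so no ratio is given. The larva ratio thus rests on libraries 1 and 2. The relative itself was at 1670, 1321 and 1634 CPM at hatching and 466, 434 and 81.4 CPM in the larva. What part of the pred-2 counts are misread copies of the relative was not tested.

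Pred-4 also returned in the larva at another length. It had 52, 18 and 32 counts at hatching, 5.93 ± 2.15 CPM, and no listing in an earlier library. A form 1 base shorter at the 5′ end, whose seed is therefore shifted, had 10 counts in larva library 1 and 37 in library 3 and none at hatching:
pred-4, shorter form: aAGTGGACcattgacacttct
The label of loss after hatching does not hold for pred-2 and pred-4 when end forms count as the same microRNA, which leaves 15 of the 17.

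Lists rarely held 2 end forms at once, in any stage. Over 614 pairs of predicted rows that differed only at their ends, at least 1 form was listed in 3023 pair and library combinations, and both in 203, or 6.72%. For the 821 pairs that differed by 1 base the share was 25.2% of 3886. An end form in the other stage was found for 2 of 17 members (11.8%) and for 4 of the 9 sequences (44.4%) that were listed in all larva and no hatching libraries. How the lists were made with regard to length forms is not given in the sources used here.

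The other members were low at hatching, and 11 of the 17 were listed at no earlier stage. At their hatching levels those 11 would have given at most 3.08 counts in the deepest earlier library, under the listing minimum, so the earlier lists cannot show whether they were present then at a level near that of hatching. Pred-3 had 30, 45 and 38 counts at hatching, 7.02 ± 2.29 CPM, pred-5 had 35, 13 and 20, and pred-6 had 25, 22 and 11. Pred-8 had 16, 6 and 10 counts, pred-9 had 11, 10 and 10, and pred-10 had 11, 5 and 11. The highest hatching library of each member was 1.22 to 2.70 times its lowest in CPM.

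Most members lay close to the listing minimum. The lowest hatching count was under 10 for 10 of the 17 and exactly 5 for 4 of them, pred-10, pred-14, pred-15 and pred-16, and its median was 7, against 37.5 for the 258 predicted rows listed in all 6 hatching and larva libraries. The lowest hatching level was at least 2 times the highest 4-count level of the larva libraries for 8 members, pred-1 (83.2 times), pred-2 (31.6), pred-3 (6.32), pred-4 (5.04), pred-5 (3.64), pred-6 (3.13), pred-9 (2.32) and pred-7 (2.24). For the other 9 it was 1.05 to 1.96 times. Together the 17 made up 0.0180% ± 0.00507 of the hatching libraries (n = 3), of which pred-1 supplied 47.5%, 70.4% and 70.0%.

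**Figure D3:**
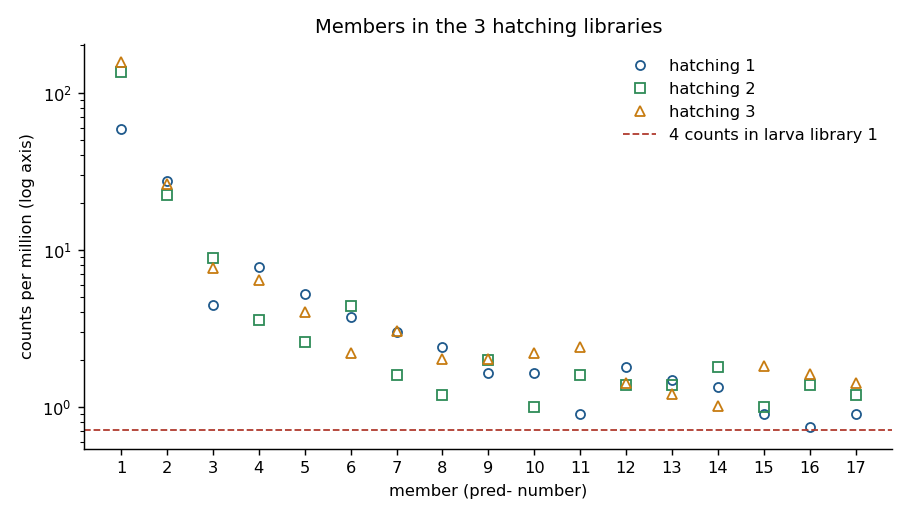
Level of each of the 17 members in the 3 hatching libraries, in CPM on a log axis, with members ordered by summed counts. The dashed line is the highest 4-count level of the larva libraries, 0.709, and the members from pred-8 on lie within 1 to 4 times that line, while pred-1 and pred-2 are far above it.

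The share of predicted rows missing from the larva fell with their level at hatching. Of the 389 rows of 19 to 23 bases listed in all 3 hatching libraries, 258 were in all 3 larva libraries, 82 in 2, 32 in 1 and 17, the members, in none. With a lowest hatching count of 5 to 9, 10 of 96 rows (10.4%) were in no larva library, against 4 of 91 (4.40%) at 10 to 19, 1 of 76 (1.32%) at 20 to 49, 0 of 35 at 50 to 99 and 2 of 91 (2.20%) at 100 or more. The 2 in the highest class are pred-1 and pred-2. Leaving out 1 library moved the number of members to 34, 56 or 32 without hatching library 1, 2 or 3, and to 35, 28 or 20 without larva library 1, 2 or 3. Each omission drops a condition of the rule, so the number could only rise, and only the size of the rise is informative.

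**Figure D4:**
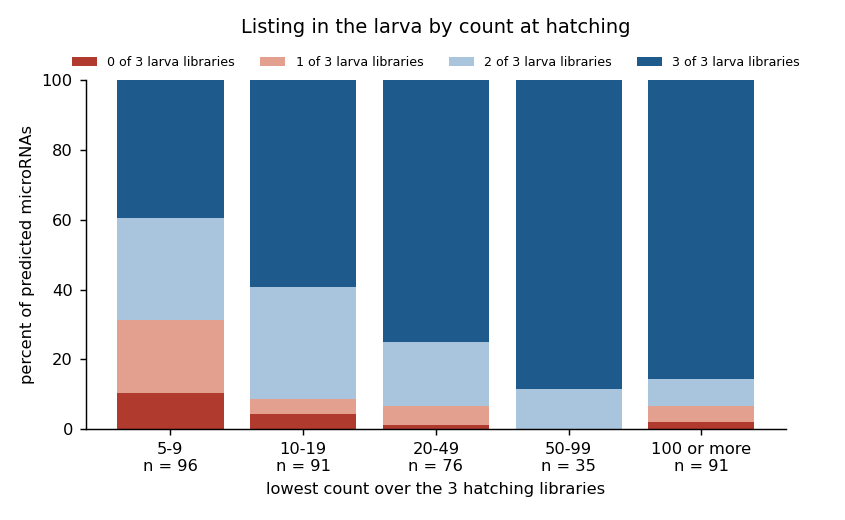
Percent of the predicted microRNAs of 19 to 23 bases listed in all 3 hatching libraries that were listed in 0, 1, 2 or 3 larva libraries, by their lowest count over the hatching libraries; n is the number of rows in each class. The dark red part, the members, is 10.4% in the lowest class and 2.20% in the highest.

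Rows just outside the rule included far more abundant sequences. Among the 32 rows listed in 3 hatching libraries and 1 larva library were the relative of pred-2 and 2 sequences whose single larva library held more counts than any hatching library:
6317, 4510 and 4148 at hatching and 9909 in larva library 1: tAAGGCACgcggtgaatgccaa
582, 466 and 391 at hatching and 652 in larva library 1: gATGGGCCgttgaattattaga
Among the 71 rows listed in 2 hatching and no larva libraries, the highest had 6148 and 5657 counts in hatching libraries 2 and 3, and the next had 456 and 254 and then 328 and 197 in libraries 1 and 3:
6148 and 5657: tAAGTGCTtctctttggggtag
456 and 254: aCCCTGTAgaaccgaatttgtg
328 and 197: cAGGCTGGttagatggttgtca
An unlisted row thus sat beside 5657 and 6148 counts in libraries of the same stage, as it did for the forms of pred-2.

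Sequence was not used by the rule beyond length, and the 17 members carry 17 different seeds, although some of them overlap or complement each other. T was the first base of 7 (41.2%), against 48.1% of all 2452 predicted rows, and 11 (64.7%) were 22 bases long, against 47.0%. Median GC content was 45.5% in both. The seed was shared with another predicted row for 13 members (76.5%, against 48.2% of all), and for 11 (64.7%, against 36.1%) when end forms were not counted. The shares were 50.4% and 44.6% for the 258 rows in all 6 hatching and larva libraries. For the 9 rows listed in all larva and no hatching libraries they were 77.8% and 66.7%, so a high share is not particular to the members.

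For some members the seed went on in the larva through other sequences. Rows with the seed of pred-4 summed to 62.9 ± 10.1 CPM at hatching and 56.1 ± 19.2 in the larva (n = 3 each), and those with the seed of pred-5 to 12.6 ± 0.614 and 18.3 ± 4.38. Those with the seed of pred-2 summed to 2619 ± 718 and 375 ± 237. For pred-1, pred-3, pred-9, pred-10, pred-11, pred-12, pred-15, pred-16 and pred-17 no predicted row with the seed was listed in a larva library; named microRNAs were not searched.

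Pred-4, pred-5 and pred-13 belong to a group of overlapping sequences and their complements. Bases 7 to 18 of pred-4, GACCATTGACAC, occur with at most 1 mismatch in 49 predicted rows (1.79% of 2742), pred-5 among them, and 5 rows hold the complement, pred-13 among them. The 49 rows summed to 220, 192 and 214 CPM in the hatching libraries and 199, 149 and 185 in the larva, so the group was present at both stages. Pred-13, with 10, 7 and 6 counts at hatching, was an exact complement of pred-4 over 19 bases, and each strand ran 3 bases past the other at its 3′ end. Counted from 1 at the 5′ end of pred-13, 2 larva rows differed from it by 1 base: the C22A form had 6 counts in larva library 1 and the C16T form, 1 base shorter, had 13 in library 3.

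Pred-3 had exact complements as well. A sequence complementary over 19 bases had 6 counts in hatching library 3, and 1 complementary over 18 bases had 13 and 19 counts in hatching libraries 1 and 2 and 11 and 28 in larva libraries 2 and 3. Another, complementary over 18 bases with 1 mismatch, was among the abundant rows of both stages, with 77882, 52132 and 63595 counts at hatching and 46264, 48889 and 58331 in the larva:
exact over 19 bases: aTAAAGCTagataaccgaagta
exact over 18 bases: tAAAGCTAgataaccgaagtaa
1 mismatch over 18 bases: tAAAGCTAgagaaccgaatgta
The abundant complement was thus in every larva library, and pred-3 in none. An exact complement was listed for 3 of 17 members (17.6%), 23 of the 258 rows in all 6 libraries (8.91%) and 140 of all 2452 (5.71%). The 3 are pred-3, pred-4 and pred-13, of which pred-4 and pred-13 complement each other and are not separate cases. Whether the shares differ was not tested.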

How the data were processed

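Small RNA libraries of 6 stages, 3 each, were grouped by the stage in the labels. Each library's deposited file holds raw, whole-number counts of mature microRNAs as the authors made them, in which predicted rows start at 5 counts. They also deposited a table of TPM values, per 1000000 of a library total and with no length term, in which 0.01 stands for unlisted; it served only as another total for the summed share. The submitters' processing notes name FastQC and edgeR. Aligner, genome build and predictor were not given in the sources used here.

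Unlisted rows entered the tests as 0. edgeR 4.0.16 (R 4.3.3) fitted all 18 libraries with TMM factors, filterByExpr with a minimum count of 10, and the quasi-likelihood test between consecutive stages. Adjusted p (Benjamini-Hochberg) under 0.05 over 328 rows was a call; 5 members were tested. The script was tested on simulated libraries of equal depth with no listing minimum. That test does not cover the depth differences and unlisted rows of these data. Libraries of a stage differed by more than sampling noise (lowest chi-square per degree of freedom 35.3). End forms share sequence without mismatch and differ by up to 3 bases at an end; complements overlap by at least 17 bases. CPM are per 1000000 listed counts, and SDs are over 3 libraries.

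The members, lists and tests were chosen with earlier results of these data known. Members named are the 10 highest at hatching, those listed most before hatching, those nearest the rule's threshold with the 3 highest just outside on each side, and any called in a comparison the rule did not use; members singled out for their end forms, complements or seeds were chosen after their values were seen.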

Additional observations from a re-analysis of the deposited data

How the results depend on the processing

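The number of members, 17, ran from 20 to 56 when 1 library was left out, which drops a condition and can only raise it. It was 7 at 10 or more counts in each hatching library, which can only lower it. Of these 7, all with different seeds, 6 had a seed that also occurs in another predicted row. The number was 20 with no limit on length, 17.9 on average when libraries were thinned to 4964459 counts, and 15 when end forms counted as the same microRNA. No member was called from cleavage to blastocyst, but 1 was with no filter (21 of 2886 rows called) and 1 with DESeq2 (49 of 328). From gastrulation to organ formation 1 was called with library totals (47 of 328 rows), where the value of pred-1 moved from -0.01 to 1.68. With end forms summed 1 was called there (30 of 328 rows). From organ formation to hatching, 8 were called with unlisted rows counted as 4, of which 7 were higher and 1 lower at hatching. Of all 2869 rows in that setting 613 were called, 597 higher and 16 lower, so no rise is read from it. With the 2 stages alone, with DESeq2 or with end forms summed, 2 were called, both lower, beside 155 of 357, 90 of 328 and 118 of 328 rows. From hatching to larva the numbers in the same settings, in that order, were 7, 5, 2 and 3, all lower. Beside them stood 136 of 2869, 49 of 612, 29 of 328 and 3 of 328 rows. With 1 library left out, the members called stayed at 0, 0, 0, 1 and 1 in the 5 steps. Over 27 alternatives, calls among all rows ran from 9 to 110 (25 as reported), 6 to 43 (23), 2 to 61 (20), 24 to 613 (89) and 1 to 136 (1). With library totals, 12 rows were higher and 98 lower from cleavage to blastocyst (20 and 5 with TMM), 13 and 7 from blastocyst to gastrulation (10 and 13), 41 and 6 from gastrulation to organ formation (6 and 14), and 38 and 30 from organ formation to hatching (60 and 29).

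With the replicate number as a block, members called were 0, 0, 0, 1 and 1, pred-1 gave 1.31, -0.50, -0.02, -8.35 and -11.13, and calls among all rows were 21, 13, 14, 63 and 2. With end forms summed and the block, pred-11 from gastrulation to organ formation gave -2.47 (adjusted p = 0.0730, edgeR). Same-numbered libraries did not deviate together (correlations -0.192 to 0.103), so no pairing by number was seen. Unlisted rows entered as 0 and unequal depth could hide a pairing, so it is not excluded.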
